A study of Mus musculus with 2 samples.

Results

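The metallothionein genes Mt1, Mt2 and Mt4 were followed in single cells of the mouse cervix, in a library from untreated mice and a library from progesterone-treated mice. The members were the listed genes, taken by symbol from the gene tables of the matrices, and they are 3 of the 31053 genes measured. They had been chosen by their measured levels in these libraries, by cell type, so their levels and differences are described here and not tested. C57BL6/129 females aged 7 to 8 weeks had their ovaries removed (OVX) and recovered for 2 weeks before a 15-day experiment. The OVX control mice were left without treatment. The progesterone mice were injected subcutaneously with 100 µg of E2 (estradiol, in corn oil) per day for 2 days and were then given a 25 mg pellet with 21-day release, an estimated 1 mg of progesterone per day. Both groups lacked ovaries, no vehicle group was used here, and E2 and progesterone cannot be told apart in the treated library. Cervices of 9 mice were pooled for each library without a label for the mouse. With 1 library per group, no test between the groups is possible, and the intervals below cover counting error only.

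Metallothioneins are small cysteine-rich proteins that bind zinc and copper ions through the sulphur of their cysteines. Mt1 and Mt2 are made in most tissues, and their transcription is raised by zinc through the factor MTF-1, by oxidants and by glucocorticoids. Mt4 is known from stratified squamous epithelia such as skin and tongue, where it is made in the differentiating layers, and Mt3 is known mainly from the brain. The cervix carries a stratified squamous epithelium with basal and suprabasal layers, and a luminal epithelium of columnar mucus-making cells.

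The 4 genes lie side by side on chromosome 8 of GRCm38, on the plus strand, within 43131 bases. In the GENCODE annotation Mt4 spans 94137197 to 94139031, Mt3 94152607 to 94154146, Mt2 94172664 to 94173568 and Mt1 94179082 to 94180327. Each is a protein-coding gene of 3 exons. The coding sequences, read from the GENCODE transcripts, are shown because the metal-binding cysteines are in them. The UMIs were counted at the 3′ end of the transcripts, and the untranslated bases there are not shown. The cysteine codons (TGC or TGT) are in capitals.
Mt1: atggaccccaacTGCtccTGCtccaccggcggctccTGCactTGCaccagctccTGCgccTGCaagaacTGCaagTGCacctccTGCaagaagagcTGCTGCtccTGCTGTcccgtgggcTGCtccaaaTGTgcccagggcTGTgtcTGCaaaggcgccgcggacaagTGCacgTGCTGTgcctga
Mt2: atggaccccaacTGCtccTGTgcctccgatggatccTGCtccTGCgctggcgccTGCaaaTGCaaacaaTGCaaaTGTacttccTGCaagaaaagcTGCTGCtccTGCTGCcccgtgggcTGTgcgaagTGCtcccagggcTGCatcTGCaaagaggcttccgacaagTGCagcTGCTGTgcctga
Mt4: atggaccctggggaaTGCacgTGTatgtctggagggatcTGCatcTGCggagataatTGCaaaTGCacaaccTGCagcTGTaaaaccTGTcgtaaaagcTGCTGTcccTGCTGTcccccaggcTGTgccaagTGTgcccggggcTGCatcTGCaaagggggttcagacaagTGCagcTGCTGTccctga
Each of the 3 coding sequences held 20 cysteine codons, of 61 codons before the stop in Mt1 and Mt2 and 62 in Mt4. Mt1 and Mt2 were identical at 79.6% of aligned coding positions, Mt2 and Mt4 at 72.0%, and Mt1 and Mt4 at 65.6%. The longest run shared by 2 of the transcripts was 20 bases (Mt1 and Mt2), against a cDNA read of 90 bases.

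The sequences before the annotated transcription starts are shown because Mt1 and Mt2 were found in many cell classes and Mt4 in few cells of 1 library. They are 243 bases from RefSeq, build GRCm38.p6, plus strand. Capitals mark metal response elements, the motif that MTF-1 is known to bind, searched as TGCACNC or TGCGCNC on both strands.
Mt1, chr8:94178839-94179081: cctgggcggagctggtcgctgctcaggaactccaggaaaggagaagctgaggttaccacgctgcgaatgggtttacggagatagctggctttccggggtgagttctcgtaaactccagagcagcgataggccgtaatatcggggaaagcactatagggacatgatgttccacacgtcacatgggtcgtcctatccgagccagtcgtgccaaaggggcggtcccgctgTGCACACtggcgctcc
Mt2, chr8:94172368-94172610: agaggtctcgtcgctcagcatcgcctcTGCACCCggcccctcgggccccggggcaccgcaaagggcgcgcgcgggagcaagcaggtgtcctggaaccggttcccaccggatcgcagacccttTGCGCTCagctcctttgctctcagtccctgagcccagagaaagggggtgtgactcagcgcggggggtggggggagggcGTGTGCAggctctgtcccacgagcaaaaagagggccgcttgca
Mt4, chr8:94136954-94137196: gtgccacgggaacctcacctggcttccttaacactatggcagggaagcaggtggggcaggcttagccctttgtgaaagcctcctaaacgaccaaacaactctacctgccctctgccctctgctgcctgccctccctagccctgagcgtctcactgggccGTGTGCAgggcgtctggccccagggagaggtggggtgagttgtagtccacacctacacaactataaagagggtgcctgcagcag
In the RefSeq window of 300 bases, from 250 before to 50 after the start, the motif was found 3 times for Mt1, 4 times for Mt2 and once for Mt4. Of these matches 1 for Mt1, 3 for Mt2 and 1 for Mt4 lay in the stretches shown. The others began after the RefSeq start. Where transcription starts in these cells was not tested, so the counts before and after hold for the annotated starts only. Of 27025 promoter windows of this length, 25.6% held it at least once, 2.00% at least 3 times and 0.503% at least 4 times. The antioxidant response element, searched as TGACNNNGC on both strands, was found once in the Mt2 window and not in those of Mt1 and Mt4. Of all promoter windows 12.5% held it. Bases beyond 50 after the annotated start were not searched, so a gene without a match here may hold either motif there. These are matches of letters and not tested sites.

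The control library held 5368 barcodes with 21658684 UMIs (unique molecular identifiers, each counting 1 captured RNA molecule), and the progesterone library 10853 barcodes with 44811069. After filters and removal of likely doublets 4579 control and 8541 progesterone cells were analysed, with medians of 3733 and 4151 UMIs. The libraries shared 12 cell barcodes among the analysed cells. Cells of both libraries fell into 26 clusters, which were named from marker genes as "X-like", and the members took no part in the clustering. Squamous-like cells numbered 2737 in the control and 4521 in the progesterone library, luminal-like cells 218 and 1946, and cells of unnamed clusters 942 and 892. In squamous-like cells the 7 basal markers, such as Krt5 and Krt14, summed to 32276 and 14136 CPM (UMIs of the gene per 1000000 UMIs of the class) in the control and progesterone library. The 6 fibroblast and 7 macrophage markers there summed to at most 15.2 CPM in either library. The 8 luminal markers summed to 739 and 1468 CPM and the 7 neutrophil markers to 303 and 209 CPM in the same cells, and their part in the values below was not tested.

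Mt1 and Mt2 were measured in most cell classes of the control library, at their highest in squamous-like and, for Mt1, macrophage-like cells. Over all analysed cells, Mt1 was at 437 CPM in the control and 201 CPM in the progesterone library, and Mt2 at 135 and 51.0 CPM. Mt4 was at 68.2 CPM in the control library, while no Mt4 UMI was counted in the progesterone library. Control squamous-like cells had 547 CPM of Mt1 (95% interval 535 to 559.6), against 226 CPM (219.7 to 232) with progesterone. Their Mt2 was at 176 CPM (169 to 183), against 65.4 CPM (62.2 to 68.8). Both genes were lower with progesterone, and the intervals lay far apart.

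**Figure D1:**
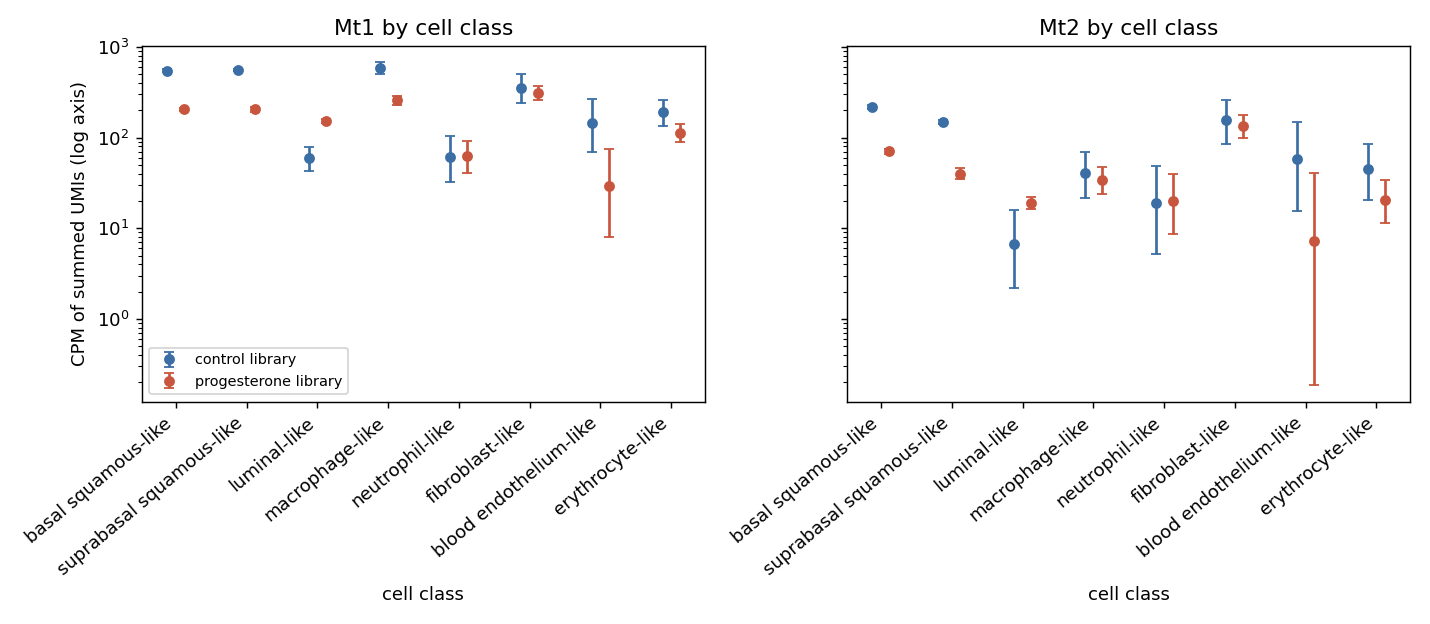
Level of Mt1 (left) and Mt2 (right) in CPM of summed UMIs, on a log axis, by cell class and library; points are the library's value and bars exact Poisson 95% intervals for counting error. In basal and suprabasal squamous-like cells the control points lie above the progesterone points, in luminal-like cells below them, and in fibroblast-like and neutrophil-like cells the intervals overlap.

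In squamous-like cells the ratio of progesterone over control was 0.412 for Mt1 (95% interval 0.398 to 0.427), which is 2.43-fold lower, and 0.372 for Mt2 (0.349 to 0.397), 2.69-fold lower. Of 12712 genes with at least 20 UMIs in this class, 6.02% were at least 2-fold lower with an interval apart from a ratio of 1, and 10.5% were at least 2-fold higher. All 3 members were among the lower ones. This contrast had been used to choose them. The median gene had a log2 ratio of 0.12, and 4.15% of the genes had a lower log2 ratio than Mt1 and 3.41% a lower one than Mt2. Basal squamous-like cells, the layer with the stem and dividing cells, had 547 and 206 CPM of Mt1 and 217 and 70.7 CPM of Mt2 in the control and progesterone library. Of 11799 genes measured in basal cells 6.53% were at least 2-fold lower, and the members were again among them. For Mt4 this came from 77 control UMIs, of which 1 cell held 48. At Leiden resolution 2, where 742 control and 1584 progesterone cells were basal, the log2 ratio was -0.61 for Mt1 and -0.88 for Mt2, against -1.41 and -1.62, and neither was 2-fold lower. Suprabasal squamous-like cells, the differentiating layer above, had 558 and 207 CPM of Mt1 and 149 and 39.9 CPM of Mt2. There 5.39% of 10866 genes were at least 2-fold lower, the members included. The lower level was thus present in both layers taken as classes. The suprabasal cells of the 2 libraries were largely of different clusters. Cluster 6 had 795 control and 34 progesterone cells, cluster 1 had 443 and 15, and cluster 0 had 76 and 694. In cluster 6 the ratio was 0.663 (0.476 to 0.902) for Mt1 and 1.21 (0.728 to 1.89) for Mt2. The Mt2 ratio came from 20 progesterone UMIs, of which 1 cell held 16. In suprabasal cells the ratio was 0.269 (0.230 to 0.312) for Mt2 and 0.370 (0.346 to 0.396) for Mt1. Under a stricter cell filter the suprabasal log2 ratio of Mt2 was -1.29, against -1.90, and its interval overlapped that of Mt1, as it did at Leiden resolution 2.

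The share of cells with at least 1 UMI followed the same order after each cell was thinned to 2000 UMIs. Mt1 was found in 52.6% of 2178 control and 31.4% of 4194 progesterone squamous-like cells, and Mt2 in 23.7% and 10.0%. Unthinned shares were 65.8% and 53.6% for Mt1 and 37.1% and 22.8% for Mt2, at median depths of 4626 and 4864 UMIs. Other measures moved with the library in these cells. Mitochondrial UMIs made up 5.64% in the control and 7.05% in the progesterone library, and the 14 genes of a dissociation and heat stress list summed to 5228 and 2771 CPM. The part of these in the lower Mt1 and Mt2 was not tested.

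The libraries filled different squamous clusters, so the ratios were also taken within clusters. Mt1 was lower with progesterone in 5 of 6 squamous-like clusters with at least 50 cells from each library. Its ratios ran from 0.347 to 0.841 over the 6. Mt2 was lower in 5, with ratios from 0.261 to 0.690. The median ratio over the 6 was 0.609 for Mt1 and 0.541 for Mt2, nearer to 1 than the 0.412 and 0.372 of the class. The part of the mix of clusters in the class ratios was not tested. The intervals that reached 1 were those of Mt1 in cluster 3 (0.841, 0.709 to 1.00) and of Mt2 in cluster 9 (0.690, 0.472 to 1.04). The lowest ratios were in cluster 0, suprabasal cells with Krt10 and Krtdap, where Mt1 was at 594 and 206 CPM and Mt2 at 146 and 38.0 CPM. In that cluster 3.41% of 9550 genes were at least 2-fold lower and 4.44% at least 2-fold higher. In cluster 11, the dividing basal cells marked by Top2a and Mki67, Mt1 was at 662 CPM in 298 control cells and 319 CPM in 344 progesterone cells. Mt2 there was at 265 and 137 CPM. Of 9397 genes in this cluster 5.62% were at least 2-fold lower, among them Mt1 and Mt4, and Mt2 had a ratio of 0.519. The Mt4 call came from 71 control UMIs, of which 1 cell held 48. The 12 proliferation genes summed to 2958 and 2848 CPM in this cluster. Other cell cycle genes such as Cenpf lead the cluster, so similar sums may come from how it was formed. Over all basal squamous-like cells the 12 genes summed to 1373 CPM in the control and 564 CPM in the progesterone library. The part of the cell cycle in the lower Mt1 and Mt2 was not tested. In the progesterone library cluster 11 had the second highest Mt1 and Mt2 of 20 clusters with at least 30 cells, and in the control library it ranked second for Mt1 and highest for Mt2.

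**Figure D2:**
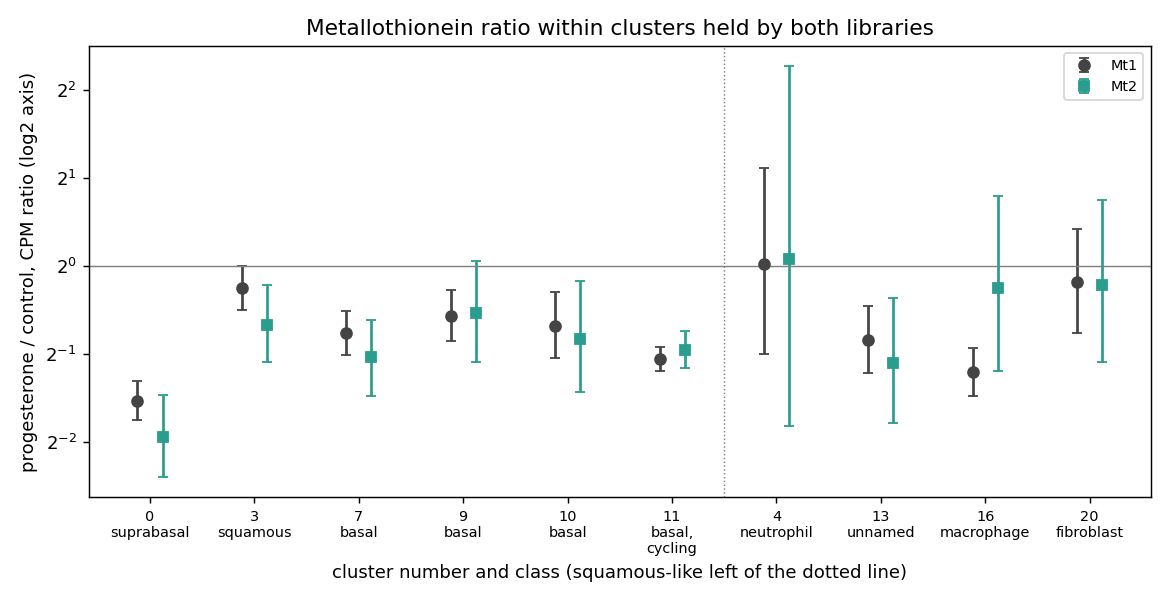
Ratio of progesterone over control CPM for Mt1 (circles) and Mt2 (squares) within the 10 clusters that had at least 50 cells from each library, on a log2 axis, with exact conditional binomial 95% intervals for counting error. The 6 squamous-like clusters left of the dotted line have ratios below 1 for both genes; the neutrophil-like and fibroblast-like intervals on the right hold 1.

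In luminal-like cells as a class Mt1 and Mt2 were higher with progesterone, a comparison between different clusters of the 2 libraries. The 218 control cells held 44 Mt1 UMIs, a level of 59.3 CPM (43.1 to 79.6). With progesterone the level was 152 CPM (144 to 160.1), and the ratio was 2.56 (1.90 to 3.55). Mt2 had 5 control UMIs (6.74 CPM) and was at 19.1 CPM with progesterone, which gave a ratio of 2.84 (1.20 to 8.86). Of 11136 genes in this class 7.27% were at least 2-fold higher and 5.54% at least 2-fold lower. After thinning, 7.48% of 147 control and 21.7% of 1636 progesterone luminal-like cells held an Mt1 UMI, against 14.7% and 35.1% unthinned at median depths of 2673 and 4740.5 UMIs. The progesterone value was still below the 226 CPM of squamous-like cells in the same library.

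The luminal-like cells of the 2 libraries were not the same clusters. The control cells came from cluster 15, with Psca, Tff1 and Olfm4 among its leading genes (212 of 218 cells), and the progesterone cells from clusters 2, 23 and 25. Cluster 15 had 59.2 CPM of Mt1 in the control library and 56.7 CPM in its 14 progesterone cells, the latter from 3 UMIs. Cluster 8, led by Sprr2d, Ltf and Lcn2 and left unnamed although its highest score was luminal, had a lower Mt1 with progesterone, at a ratio of 0.326 (0.172 to 0.565, from 325 and 13 UMIs in 418 and 31 cells). Neither of these clusters, which had 14 and 31 progesterone cells, had more Mt1 with progesterone. Krt5, a basal squamous keratin, was at 2748 CPM in the control and 586 CPM in the progesterone luminal-like cells, and its part in the ratio was not tested. Without removal of likely doublets only 13 control cells were luminal-like and the Mt1 log2 ratio was 0.28, with an interval that held 0. When clusters 8 and 19, both unnamed, were added, it was 0.49 against 1.36, and that of Mt2 was 0.16, with an interval that held 0, against 1.51. As the mean of each cell's CPM the Mt2 log2 ratio was 0.49, under 2-fold.

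A small luminal-like cluster of the progesterone library stood out. Cluster 25, whose leading gene is Prap1 (a secreted proline-rich acidic protein), had 38 cells, none of them from the control. It held 746 CPM of Mt1 (658 to 842) and 234 CPM of Mt2 (186 to 291), the highest of 20 clusters in that library. The mucus-making clusters 2 and 23 of the same library, the latter with Clca1, had 138 and 120.5 CPM of Mt1 and 12.2 and 9.04 CPM of Mt2. The median depth was 9002 UMIs in cluster 25, against 5120 in cluster 2 and 4464 in cluster 23. Without thinning, Mt1 was counted in 38 of 38 cells of cluster 25. The lowest value was 1, the median 6 and the highest 22 UMIs per cell, so no cell held more than 8.43% of them. Mt2 was counted in 28 of the 38. These cells were 1.95% of the progesterone luminal-like cells and held 18.3% of their Mt1 UMIs and 45.6% of their Mt2 UMIs. Without cluster 25 the luminal-like log2 ratio was 1.12 for Mt1, and 0.68 for Mt2, from 98 progesterone UMIs and with an interval that held 0.

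Among the other classes, macrophage-like cells of the control had 592 CPM of Mt1 (511 to 683). With progesterone they had 257 CPM (228 to 290.1), and the ratio was 0.435 (0.359 to 0.526). Of the 189 control Mt1 UMIs 1 cell held 24. Unthinned, 38.5% of control and 36.3% of progesterone macrophage-like cells held an Mt1 UMI, at median depths of 1471 and 1757.5. After thinning the shares were 56.1% of 57 and 35.4% of 192 cells. Their Mt2 was at 40.7 and 34.4 CPM, a ratio of 0.846 (0.438 to 1.74). Mt1 was thus lower while Mt2 could not be told apart, from 13 and 36 UMIs. Keratin RNA differed in these cells, with Krt5 at 291 CPM in the control and 1786 CPM in the progesterone library, and its part was not tested. Fibroblast-like cells had 357 and 314 CPM of Mt1 and 156 and 135 CPM of Mt2, with ratios of 0.880 (0.592 to 1.34) and 0.862 (0.470 to 1.69). Unnamed cluster 13, with 160 control and 740 progesterone cells, was lower for both genes. Its ratio was 0.558 (0.431 to 0.730) for Mt1 and 0.468 (0.292 to 0.778) for Mt2. Neutrophil-like cells were low in both libraries, at 61.6 and 62.8 CPM of Mt1, from 13 and 25 UMIs, with an interval of the ratio from 0.502 to 2.17. Free RNA in the droplets can give such low values, and 3.31% and 4.29% of neutrophil-like cells held an Mt1 UMI at median depths of 581.5 and 776 UMIs. Blood endothelium-like cells had 10 and 4 Mt1 UMIs, a ratio of 0.202 (0.0463 to 0.701), with Krt5 at 1801 and 65.5 CPM. Erythrocyte-like cells had 190.1 and 113 CPM of Mt1, a ratio of 0.595 (0.400 to 0.899), with Krt5 at 2692 and 1272 CPM. Mt1 was lower in both, from few UMIs, and the part of keratin-bearing RNA was not tested. The order of control classes by Mt1 put macrophage-like, suprabasal and basal squamous-like cells at the top with overlapping intervals, then fibroblast-like cells, and luminal-like and neutrophil-like cells at the bottom.

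The balance between Mt1 and Mt2 differed more between cell classes than between the libraries. Mt2 made up 28.4% of the Mt1 and Mt2 UMIs of basal squamous-like cells in the control and 25.5% in the progesterone library. In suprabasal cells the shares were 21.0% and 16.2%, and in luminal-like cells 10.2% and 11.2%. Macrophage-like cells had 6.44% in the control and 11.8% in the progesterone library, and fibroblast-like cells 30.4% and 30%. Cluster 25 had 23.9% (19.5 to 28.8), a share close to that of squamous-like cells (22.5% in that library), while the Clca1 cluster 23 had 6.98% (5.01 to 9.41). UMIs were counted at the 3′ end and were not scaled by length.

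**Figure D3:**
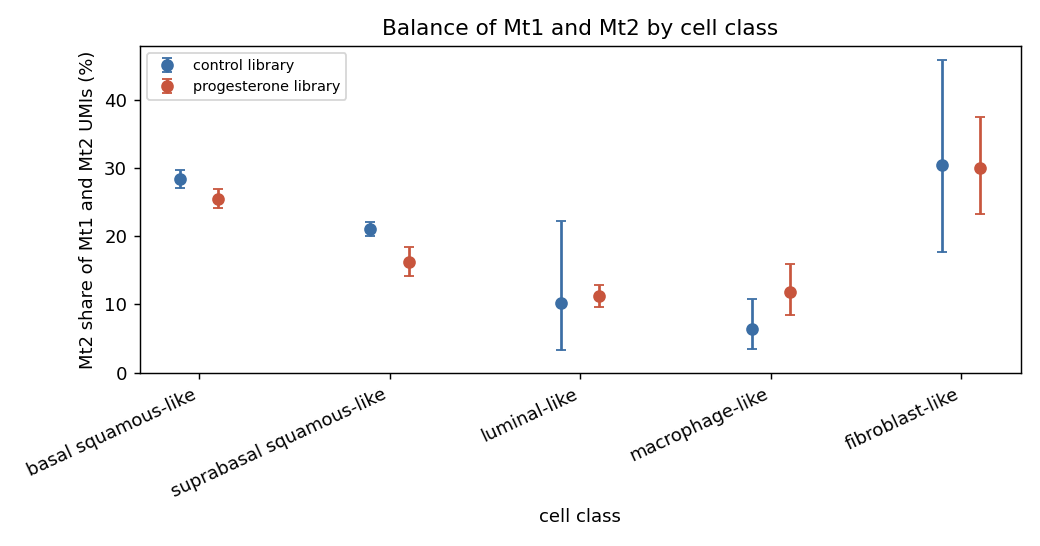
Share of Mt2 among Mt1 and Mt2 UMIs, in percent, by cell class and library, with exact Clopper-Pearson 95% intervals for counting error. Basal squamous-like and fibroblast-like cells lie between 25.5% and 30.4%, and luminal-like and macrophage-like cells between 6.44% and 11.8%.

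Mt4 was counted in the control library and not in the progesterone library. The deposited control matrix held 1389 Mt4 UMIs in 209 barcodes, and the progesterone matrix held 0 among 44811069 UMIs, which allows up to 0.0669 CPM. Among analysed cells 198 of 4579 control cells (4.32%) and 0 of 8541 progesterone cells had an Mt4 UMI, and the latter allows a share of up to 0.0351% of cells with a UMI. It does not limit cells that make Mt4 at a level below capture. In squamous-like cells the control level was 95.3 CPM (90.3 to 100.5), at least 757-fold higher than the progesterone library, taking 3 counts as the floor of that library. The bound was at least 269-fold in suprabasal and at least 58.5-fold in basal squamous-like cells. The basal bound came from 77 control UMIs, of which cluster 11 held 71 and 1 of its cells 48. After thinning to 2000 UMIs, 4.91% of control squamous-like cells held an Mt4 UMI, and unthinned 6.94%. In control cells that should lack it the gene was at background: 0 of 218 luminal-like, 0 of 187 macrophage-like, 0 of 77 fibroblast-like and 1 of 332 neutrophil-like cells held a UMI, at median depths of 2673, 1471, 962 and 581.5.

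The control UMIs of Mt4 sat in few cells. Of the 198 cells with Mt4, 74 had 1 UMI, 49 had 2 to 4, 28 had 5 to 9 and 47 had 10 or more, up to 54. The 24 cells with most Mt4 held 50% of it. Cluster 1, named suprabasal and led by Krt16 and Krt6b, keratins known from activated and regenerating epidermis, made up 9.67% of the control cells and held 92.7% of the Mt4 UMIs. These were 1271 UMIs in 160 of its 443 cells, a level of 365 CPM. Basal markers were also high in its control cells, where the 7 summed to 61200 CPM and the 9 suprabasal ones to 20373 CPM. Over both libraries Krt5 and Krt14 together were at 58754 CPM there, against 25853 CPM in the basal cluster 7. Cluster 11, the dividing basal cells, came next with 71 UMIs in 16 cells, of which 1 cell held 48. That cell had 782 Krt16 UMIs and 34 UMIs of proliferation genes among 23572. The other clusters had at most 8 UMIs each. Under 4 other ways of clustering, the cluster with most Mt4 held between 91.5% and 96.1% of the UMIs.

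**Figure D4:**
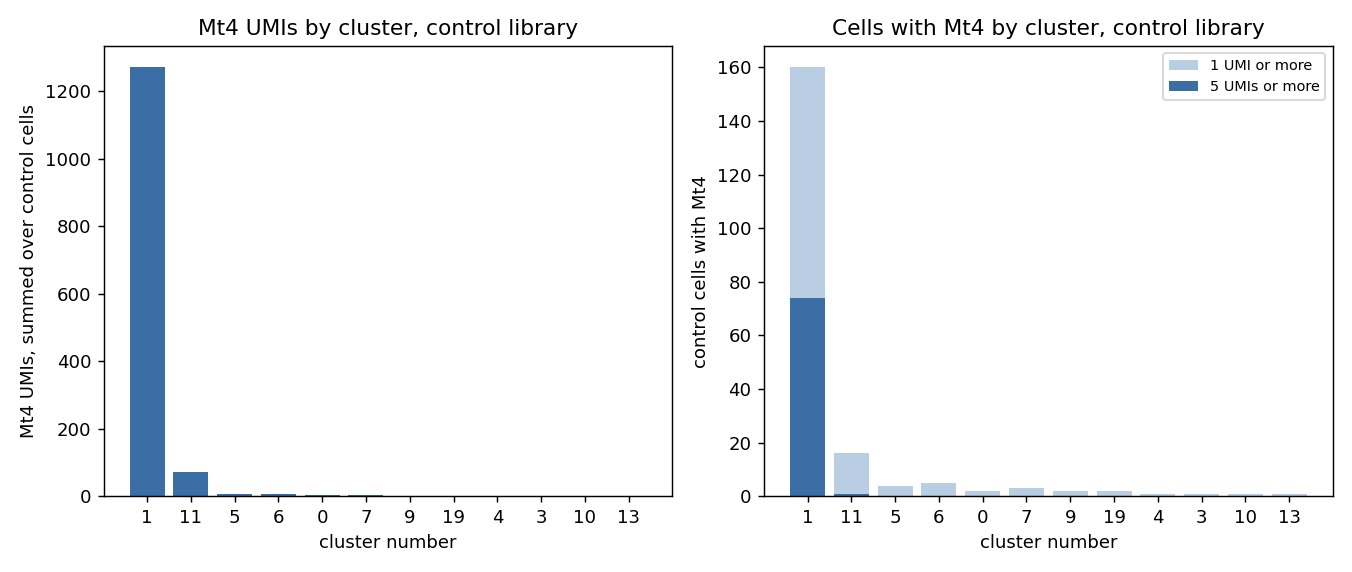
Mt4 in control cells by cluster, for the clusters with any Mt4 UMI: summed UMIs (left) and cells with at least 1 or at least 5 UMIs (right). Cluster 1 holds 1271 UMIs and 74 of the cells with at least 5, and the clusters outside 1 and 11 hold at most 8 UMIs.

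The cells that held Mt4 in the control library had few counterparts in the progesterone library. Cluster 1 had 443 control and 15 progesterone cells, and the latter held 0 Mt4 UMIs of 126261, which makes the control level at least 15.4-fold higher within the cluster. The 15 cells also differed from the control cells in the genes that lead the cluster, with Krt16 at 1267 against 15802 CPM and Krt6b at 1220 against 7297 CPM. Over squamous-like cells Krt16 was at 4124 CPM in the control and 22.7 CPM in the progesterone library. Mt4 and the Krt16 and Krt6b cells thus went together, and less Mt4 per cell and fewer such cells cannot be told apart here. Without cluster 1 the bound for squamous-like cells was a log2 ratio of at most -6.01, from 88 control UMIs, against at most -9.56 with it. The mice were pooled without a label, and how many mice the Mt4 cells came from cannot be told apart. Outside cluster 1, Mt1 and Mt2 remained lower with progesterone, at log2 ratios of -0.9996 and -1.28 against -1.28 and -1.43.

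Within cluster 1, Mt4 varied from cell to cell without Mt1. The control cells with at least 4000 UMIs were thinned to 4000 and split by their Mt4 UMIs into 213 cells with 0, 55 with 1 to 2 and 60 with 3 or more, while 115 cells were too shallow. Mt4 itself, which made the split, was at 20.2, 373 and 1401 CPM. Mt1 was at 850, 876 and 860 CPM, a ratio of 1.01 (0.921 to 1.11) between the outer bins. Mt2 was at 249, 251 and 171 CPM, 1.45-fold lower (1.19 to 1.79) in the cells with most Mt4. Cluster 1 was also the control cluster with the highest Mt1, at 844 CPM (814 to 875).

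Keratins differed between the Mt4 bins, some higher and some lower with Mt4. Krt1, the type II keratin of the epidermal suprabasal layers, was at 63.4, 129 and 695 CPM, 10.96-fold higher (9.01 to 13.4) in the cells with 3 or more Mt4 UMIs than in those with 0. Krt16 was at 10938, 20614 and 26965 CPM, and Dsg1a, a desmosomal cadherin of differentiating keratinocytes, was 3.49-fold higher. Krt5 was at 8018, 7510 and 6994 CPM. Krt10, the partner of Krt1, was at 621, 534 and 1114 CPM, lowest in the middle bin. Krt15, a basal keratin, was at 855, 759 and 252 CPM, and Itga6, which anchors basal cells to the basement membrane, was 2.82-fold lower. Of 9 suprabasal markers 8 were higher in the cells with most Mt4 and 1, Krt4, had an interval that held 1. Of 7 basal markers 5 were lower, Krt14 was 1.30-fold higher, and Trp63 had an interval that held 1. Higher and lower here mean an interval apart from 1, at any fold. The share of all genes so called between the bins was not computed, so these counts have no background beside them. The median depths of the bins were 9119, 9367 and 11950.5 UMIs. These bins are of 1 library and were cut by Mt4, so they describe its cells and test nothing.

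**Figure D5:**
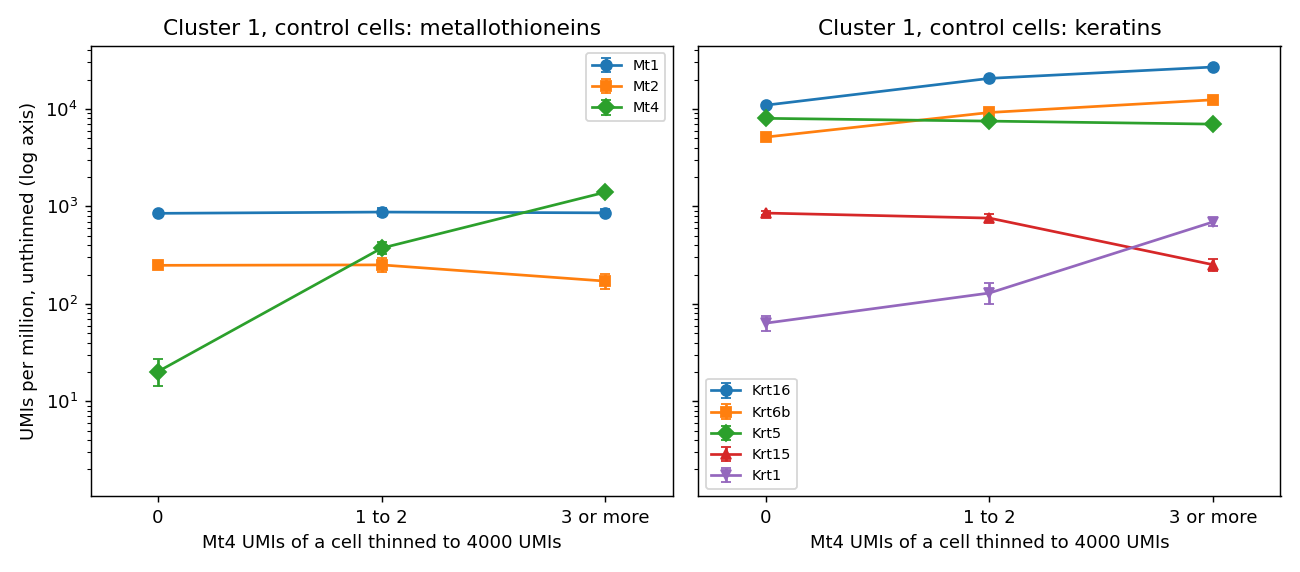
Level in CPM (unthinned UMIs, log axis) of Mt1, Mt2 and Mt4 (left) and of 5 keratins (right) in control cells of cluster 1, split by the Mt4 UMIs of each cell after thinning to 4000 UMIs; bars are exact Poisson 95% intervals. Mt1 stays between 850 and 876 CPM over the 3 bins, while Krt1 goes from 63.4 to 695 CPM and Krt15 from 855 to 252 CPM.

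Genes that handle the same metals were near the background of the class. Of 28 listed zinc and copper genes 25 were measured in squamous-like cells, of which 3 were at least 2-fold higher with progesterone and 2 lower, against 10.5% and 6.02% of all genes. The median log2 ratio was -0.15, against 0.12 for all genes. The zinc transporters Slc30a4 and Slc39a14 were 4.18-fold and 3.83-fold higher, at 2.80 and 11.7 CPM and at 3.30 and 12.6 CPM. Atox1, the copper chaperone of the secretory pathway, was at 605 and 264 CPM, a ratio of 0.436, close to that of Mt1. Mtf1, the zinc-sensing regulator of metallothioneins, was at 11.6 and 10.2 CPM (ratio 0.878, 0.718 to 1.08). Slc30a1, the zinc exporter that MTF-1 also drives, was at 12.5 and 9.99 CPM (0.796, 0.653 to 0.972). Mt3 had 21 UMIs in control squamous-like cells and 0 in the progesterone ones, at least 11.7-fold higher in the control. In luminal-like cells 24 of the 28 were measured, 2 were higher and 2 lower. Slc39a4, a zinc importer, had a ratio of 0.285, Slc39a8 one of 2.13 and Cox17, a copper chaperone to mitochondria, one of 2.03. Mtf1 had a ratio of 0.723 (0.398 to 1.44) there, and Slc30a1 had 3 control UMIs.

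Glucocorticoids and oxidants are also known to raise Mt1 and Mt2, and their lists differed in direction in squamous-like cells. The iron, stress, differentiation and proliferation lists are given beside them. Of all genes measured in this class 10.5% were at least 2-fold higher and 6.02% at least 2-fold lower, with a median log2 ratio of 0.12. Of 13 glucocorticoid response genes 5 were at least 2-fold higher with progesterone and 1 lower, with a median log2 ratio of 0.86. Tsc22d3 was 3.97-fold, Klf9 2.68-fold and Pik3r1 2.18-fold higher, while Cdkn1a had a ratio of 0.306. Progesterone-bound receptors can act on the same DNA elements as the glucocorticoid receptor, so the list does not belong to 1 hormone. Of 18 oxidative stress genes driven by Nrf2, 4 were lower and 0 higher, with a median log2 ratio of -0.27. Gpx2 (ratio 0.143) and Hmox1 (0.162), an antioxidant peroxidase and the heme-degrading enzyme, were the lowest of those named. Of 12 iron genes 2 were lower, Lcn2 (0.0679) and Tfrc (0.380). Of 14 dissociation and heat stress genes 2 were lower, Hspb1 (0.327) and Egr1 (0.447), and none was higher. Of 10 measured late squamous differentiation genes 9 were lower, among them Cnfn, Sprr2d, Sprr1a and Tgm1, with a median log2 ratio of -2.37, and 5 were lower with at least 100 UMIs per gene. Of 12 proliferation genes 3 were lower, with a median of -0.84.

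In luminal-like cells, where Mt1 and Mt2 were higher with progesterone, 7.27% of all measured genes were at least 2-fold higher and 5.54% lower. The glucocorticoid list had 0 of 13 genes higher and 2 lower. The Nrf2 list had 1 of 18 higher, Gclc at a ratio of 2.90, and 3 lower. Iron genes were 2 higher and 3 lower of 11, and stress genes 2 lower of 13. Late squamous genes were 5 lower of 6, and proliferation genes 7 lower of 8. With at least 100 UMIs per gene these counts were 2 and 1.

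The genes most like each member were found over 30 points, the clusters with at least 50 cells split by library, by Pearson correlation of log2 of CPM plus 10. The points share libraries and depth, so the values are descriptions. Mt2 was the gene most like Mt1 (0.88), followed by Srm, Gnl3, Eif2b3 and Nubp1 (0.88 to 0.83). Srm makes spermidine, and Gnl3 is a nucleolar protein. Mt2 was most like Mt1, then Cenpv, Srm, Phgdh and Gja1 (0.86 to 0.84). Mt4 was most like Dsg1b and Dsg1a (0.89 and 0.89), Calm4 (0.80), Krt16 (0.79) and Stfa3 (0.79), and its correlation with Mt1 was 0.45. With log2 of CPM plus 1, 3 of these 5 remained (Krt16 at 0.78, Dsg1b at 0.74 and Dsg1a at 0.69), and Fam162a and Iffo2 took the places of Calm4 and Stfa3. The desmosomal cadherins Dsg1a and Dsg1b and the skin calmodulin-like gene Calm4 are known from differentiating keratinocytes.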

How the data were processed

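Cervix cells were profiled with the 10x Genomics 3′ kit, 1 library of 9 pooled mice per group. Values are the authors' deposited UMI counts, unnormalized integers according to the file headers. Cell Ranger 3.0.2 and mm10 are named in the submitters' processing notes, and the annotation is not given in the sources used here. Cells were released by cold protease at 4 °C for 60 min, per the labels' protocols.

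Barcodes needed 200 or more detected genes and no more than 20% of UMIs from mitochondria. The cells with the highest Scrublet scores, 181 control and 680 progesterone cells, were left out as doublets, a share set by the number of cells. Cells of both libraries were clustered with scanpy 1.11.5 on 2000 variable genes, 30 principal components and 15 neighbours at Leiden resolution 1. The 122 list and member genes and the mitochondrial genes, 135 in all, took no part. Clusters were named from markers of 19 classes, and the naming thresholds were set after clusters had been seen, so names may differ from the study's. Luminal-like clusters needed more Krt8 and Krt18 than Krt5 and Krt14, and clusters without a clear class stayed unnamed.

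CPM were computed from the summed UMIs of a class in a library. Levels have exact Poisson, shares exact Clopper-Pearson and ratios exact conditional binomial intervals, at 95%, for counting error only. PCR and pooling of mice add error that these intervals leave out. A gene counted as 2-fold changed when its ratio passed 2-fold with an interval apart from 1, among genes with at least 20 UMIs. A fold against 0 used 3 counts as a floor. The log2 ratios ranked over all genes had 0.5 UMIs added to both sums. Shares of cells were taken after thinning to 2000 UMIs. The count script was tested on simulated data with known folds.

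The members and the 7 gene lists were chosen with earlier results of these data known. List genes named were up to 4 per list and class with the largest ratio, at least 100 UMIs and past 2-fold, besides Mtf1, Slc30a1 and Mt3. The 5 genes most like each member were named among genes with at least 500 UMIs. Genes of the keratin and junction families named in the Mt4 bins outside the fixed markers were chosen after their values were seen. Alternatives changed the cell filter, doublet removal, clustering, scaling and classes.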

Additional observations from a re-analysis of the deposited data

Results flagged for a closer look

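Mt1 and Mt2 had opposite directions in the squamous-like and luminal-like classes. The log2 ratio of progesterone over control was -1.28 for Mt1 in squamous-like cells and 1.36 in luminal-like cells. For Mt2 it was -1.43 in squamous-like cells and 1.51 in luminal-like cells. The difference was not tested, since each group has 1 library. The luminal-like cells came from different clusters in the 2 libraries, and cluster 15, held by both, had 59.2 and 56.7 CPM of Mt1. Cluster 8, unnamed with a luminal highest score, had an Mt1 ratio of 0.326 (0.172 to 0.565). The luminal-like interval held 0 for Mt1 without doublet removal and for Mt2 without cluster 25.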

How the results depend on the processing

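No paired analysis was possible because each group has 1 library, and for the same reason no replicate could be left out. Of 41 values of the 5 main log2 ratios under other settings none changed direction, 20 stayed within the counting interval and 21 moved beyond it. Mt1 in squamous-like cells, -1.28 as reported, was -1.22 without doublet removal, -1.01 at Leiden resolution 2, -1.12 with CPM that leave out mitochondrial, ribosomal protein and the 20 most abundant genes, -1.15 as the mean of cell CPM, -1.09 with classes set by keratin UMIs and -0.9996 without cluster 1. Mt2 there, -1.43 as reported, was -1.13 at Leiden resolution 2, -1.26 with the reduced CPM, -1.26 as the mean of cell CPM, -1.22 with keratin classes and -1.28 without cluster 1. The Mt4 bound, -9.56 as reported, was -8.86 at Leiden resolution 2, -9.32 with libraries clustered apart, -9.40 with the reduced CPM, -8.83 as the mean of cell CPM, -9.40 with keratin classes and -6.01 without cluster 1. Mt1 in luminal-like cells, 1.36 as reported, was 0.28 without doublet removal, 2.01 with keratin classes and 0.49 with clusters 8 and 19 added, and Mt2, 1.51 as reported, was 0.16 with those clusters and 0.49 as the mean of cell CPM. Without doublet removal Mt2 gave no value, since the 13 control luminal-like cells held no Mt2 UMI. Without cluster 25 Mt2 was 0.68 with an interval that held 0. The omission of clusters 1 and 25 and the addition of clusters 8 and 19 were chosen after seeing the data. With at least 100 UMIs per gene in place of 20, which tests fewer genes, 807 genes were 2-fold higher and 482 lower in squamous-like cells (1332 and 765 as reported), and 364 lower in luminal-like cells (617 as reported). The share of control squamous-like cells with Mt4 was 4.91% after thinning to 2000 UMIs, 7.77% after thinning to 4000 and 6.94% without thinning. In basal and suprabasal cells apart, 17 of 24 values moved and none changed direction. At Leiden resolution 2 basal Mt1 and Mt2 were -0.61 and -0.88 and no longer 2-fold lower (-1.41 and -1.62 as reported), and under the stricter cell filter suprabasal Mt2 was -1.29 (-1.90 as reported). Of 56 list counts 51 stayed within 1.5 times. The others came with at least 100 UMIs per gene: zinc and copper genes lower were 1 in each epithelium (2 as reported), late squamous genes lower 5 and 2 (9 and 5) and luminal proliferation genes lower 1 (7). The cause of the other moves was not tested. Few UMIs limit the control values of luminal-like (44 Mt1 and 5 Mt2), neutrophil-like (13 and 4) and blood endothelium-like cells (10 and 4).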
